A study of Homo sapiens with 36 samples.

Results

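Sites of GATA2 occupancy in and around ROBO2, DCC and IGF2R were followed across wild-type and GATA2-low cells of HUDEP-2, a human line of immortalized erythroid progenitors. They comprise every deposited peak whose summit lay in the hg38 body of one of these genes or within 50 kb on either side. The 63 peaks that met this rule were merged by overlap into 10 sites, out of 17277 sites formed by all 120509 peaks. ROBO2 held 5 of these sites, DCC 1 and IGF2R 4. The genes were picked with earlier results of the same libraries known, so their presence in wild-type cells and absence from GATA2-low cells is a description and was not tested.

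Occupancy was measured by CUT&Tag, in which an antibody directs a transposase to chromatin and the fragments it releases are sequenced. Wild-type cells carried a lentiviral empty vector. GATA2-low cells, with the genotype label GATA2+/-, carried the empty vector, GATA2 with an HA tag, or the HA-tagged mutant GATA2(T354M), which has a substitution in a zinc finger. The wild-type cells and all 3 kinds of GATA2-low cells were profiled with an antibody against GATA2, and the GATA2-low cells also with an antibody against the HA tag, in 7 groups of 4 libraries. The empty vector carries no HA tag, so its anti-HA libraries give the background of that antibody. Infected cells were sorted for GFP in every group, per the labels. All groups share medium with erythropoietin, stem cell factor, doxycycline and dexamethasone. The labels give neither a clone for the GATA2-low cells nor separate cultures for the replicates. Each p-value below thus rests on library-to-library spread that may be technical.

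The lists differed much in length. They held 6555 to 9121 peaks in wild-type cells, 1823 to 3648 in GATA2-low empty-vector cells, 7064 to 12171 with HA-GATA2 and 2779 to 6311 with T354M, all by anti-GATA2. By anti-HA they held 1912 to 6065 peaks with HA-GATA2, 426 to 744 with T354M and 1 to 6 with the empty vector. Absence of a peak from the last 8 lists therefore says little. The GATA2-low empty-vector anti-GATA2 replicate 1 carries a wild-type genotype label against its title, which was followed. Read totals are not given in the files, so the depth is unknown. Of 12 erythroid marker genes, 11 to 12 had a peak within 50 kb in each wild-type library and 9 to 12 in each GATA2-low empty-vector library. Of 8 neuronal genes, 3 had one in each wild-type library and 2 to 3 in each GATA2-low empty-vector library. The ranges were 2 to 3 and 0 to 1 for 6 lymphocyte genes, and 3 to 4 and 0 to 3 for 5 neutrophil and monocyte genes. Their part in the results was not tested.

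ROBO2 encodes a roundabout receptor that binds secreted SLIT proteins and turns growing axons away from the midline. DCC encodes the receptor through which netrin-1 attracts axons, and which acts as a dependence receptor in epithelia. IGF2R, the cation-independent mannose 6-phosphate receptor, carries lysosomal enzymes to endosomes and removes IGF2 from the cell surface for degradation. GATA2 itself is a transcription factor with zinc fingers, active in blood stem cells and progenitors, that binds the core GATA and maintains the progenitor state before GATA1 replaces it on chromatin.

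On hg38, ROBO2 (gene 6092) spans 1743.3 kb of chromosome 3, from 75906675 to 77649964. DCC (gene 1630) spans 1195.7 kb of chromosome 18, from 52340197 to 53535899. IGF2R (gene 3482) spans 142.4 kb of chromosome 6, from 159969082 to 160111504. All 10 sites lay inside the gene bodies. Exon positions were not used here, so the sites are not split into exonic and intronic. The rule's 50 kb margin decided nothing, because the next sites outside the bodies lay 470.9 kb before ROBO2, 670.7 kb after DCC and 178.7 kb before IGF2R. AIRN, a non-coding RNA gene inside the span of IGF2R, had no summit in its body.

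The RefSeq promoters of the 3 genes (GRCh38.p14, plus strand, 300 bases around the start) show where the occupied sites were not. For ROBO2 the inner of 2 listed starts is given, which is the nearer to its sites (chr3:77039849-77040148). For DCC it is chr18:52339947-52340246 and for IGF2R chr6:159968832-159969131. Capitals mark GATA, or TATC, which is GATA on the other strand.
ROBO2: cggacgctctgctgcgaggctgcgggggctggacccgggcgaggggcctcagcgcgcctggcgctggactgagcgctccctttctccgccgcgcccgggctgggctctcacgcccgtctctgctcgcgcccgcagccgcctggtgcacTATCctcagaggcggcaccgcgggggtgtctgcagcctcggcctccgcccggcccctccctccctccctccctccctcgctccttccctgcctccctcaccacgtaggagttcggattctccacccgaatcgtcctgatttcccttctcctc
DCC: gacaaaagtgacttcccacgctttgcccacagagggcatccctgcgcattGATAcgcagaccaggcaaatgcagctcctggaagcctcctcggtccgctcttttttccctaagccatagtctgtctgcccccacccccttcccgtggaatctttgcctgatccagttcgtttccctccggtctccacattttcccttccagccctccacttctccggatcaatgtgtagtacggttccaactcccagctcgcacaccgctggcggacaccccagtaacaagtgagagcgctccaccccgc
IGF2R: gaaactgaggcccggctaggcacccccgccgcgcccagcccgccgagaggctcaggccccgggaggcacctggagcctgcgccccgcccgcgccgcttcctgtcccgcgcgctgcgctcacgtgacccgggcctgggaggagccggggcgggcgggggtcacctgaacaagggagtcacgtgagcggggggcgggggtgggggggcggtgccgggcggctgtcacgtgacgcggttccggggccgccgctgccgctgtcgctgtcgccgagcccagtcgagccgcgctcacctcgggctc
The ROBO2 and DCC promoters held 1 match each and the GC-rich IGF2R promoter (78.7% G and C) none, while 49.7% of 35116 RefSeq promoters of that length held at least 1. None of the 3 held the longer form AGATAA on either strand, with A or T allowed at its first base and A or G at its last, which 25% of the promoters did. These matches are a description of the letters in this window. No peak of any library overlapped these promoters. The nearest site lay 28.1 kb inside from the inner ROBO2 start, 851.6 kb from the DCC start and 9.9 kb from the IGF2R start. The sequences of the sites themselves were not analysed here.

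ROBO2 was occupied at 5 places in wild-type cells and at none in GATA2-low cells. All 5 lay within 168.7 kb in the later part of the gene, at 66.7% to 76.3% of its length. Each peak is placed below by its percentile, the share of the peaks of the same library with a lower −log10 q, and by the fragments at its summit, a whole number recovered from the deposited fold and p. The fold is the authors' enrichment over the background set by the caller. A constant is added to both fragments and background, so the fold is lower than their plain ratio.

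The strongest ROBO2 site (chromosome 3, 77235911 to 77236930) lay 1329.2 kb from the gene start. Its percentiles in wild-type replicates 1 to 4 were 92.0, 92.5, 94.2 and 91.3. Its summits held 55, 58, 71 and 57 fragments over a background of at most 0.302, with folds of 43.5 to 57.8, and lay within 1 bp of each other. The 4 wild-type libraries thus placed it at nearly the same position and near the top of their lists. None of the 24 libraries of GATA2-low cells had a peak there.

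The site at 77179571 to 77180390, 1272.9 kb from the start, had wild-type percentiles of 92.9, 85.6, 88.1 and 89.1. Its summits held 58, 41, 48 and 51 fragments. It was again absent from all 24 GATA2-low libraries. The first site of the gene, at 77068192 to 77069156, was weaker, with percentiles of 64.8, 75.9, 71.5 and 57.3 and 30, 30, 35 and 26 fragments. The site at 77080238 to 77080726 had a peak in replicates 1, 3 and 4 only, with percentiles of 20.5, 59.3 and 58.5 and 11, 20 and 20 fragments. The 5th site was found in wild-type replicate 4 alone, at percentile 23.5 with 11 fragments. The ROBO2 sites thus ran from near the top of the wild-type lists down to percentiles of 20.5 and 23.5, and the GATA2-low lists held none of them.

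DCC had 1 site (chromosome 18, 53191749 to 53192397), 851.6 kb from the gene start at 71.2% of its length. Its wild-type percentiles were 73.6, 85.3, 87.6 and 85.1, with 29, 42, 49 and 44 fragments at the summit and folds of 22.3, 31.7, 38.6 and 35.8. Replicate 1 was the lowest by each of these measures. The 4 summits lay within 3 bp. None of the 24 GATA2-low libraries had a peak at this site.

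IGF2R differed from the other two genes, since all 4 of its sites were found in some GATA2-low cells. The site near the end of the gene (chromosome 6, 160101256 to 160102099, 132.2 kb from the start) was the most widely shared, with a peak in 19 of the 28 libraries. By anti-GATA2 its percentiles were 88.8, 87.9, 90.4 and 89.8 in wild-type cells and 48.9, 49.0, 69.6 and 80.1 in GATA2-low empty-vector cells. They were 61.6, 85.9, 85.1 and 87.2 with HA-GATA2 and 82.0, 67.5, 87.7 and 92.0 with T354M. The lists differ in length, so the percentiles give places within lists and not levels. Its summits held 79, 77, 90 and 77 fragments in wild-type and 28, 23, 34 and 42 in GATA2-low empty-vector libraries. Whether other sites found in both groups differ in the same way was not tested, so nothing particular to this site is read from these values. These fragment numbers are not corrected for depth.

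A second IGF2R site, at 160051303 to 160051772 (82.2 kb from the start), was found in wild-type and T354M cells. Its wild-type percentiles were 80.3, 67.7, 71.2 and 69.3, with 35, 25, 27 and 26 fragments. With T354M they were 49.5, 28.05, 58.3 and 64.3. No HA-GATA2 library and no GATA2-low empty-vector library had a peak there, with either antibody. The HA-GATA2 anti-GATA2 lists averaged 10395 ± 2274 peaks (SD, n = 4), against 7625 ± 1247 in wild-type cells.

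The site 9.9 kb from the IGF2R start (159979003 to 159979552) had wild-type percentiles of 54.4, 39.5, 33.8 and 45.1. HA-GATA2 replicates 2, 3 and 4 had it at 9.50, 34.4 and 15.2, and T354M replicates 1, 3 and 4 at 50.2, 37.1 and 38.0. The site 20.8 kb from the start (159989842 to 159990295) had a peak in wild-type replicates 3 and 4, in HA-GATA2 replicate 2 and in T354M replicates 1, 3 and 4. Neither was found in any GATA2-low empty-vector library. The matrix of percentiles shows the ROBO2 and DCC sites filled in wild-type columns alone and the IGF2R sites filled further to the right.

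**Figure D1:**
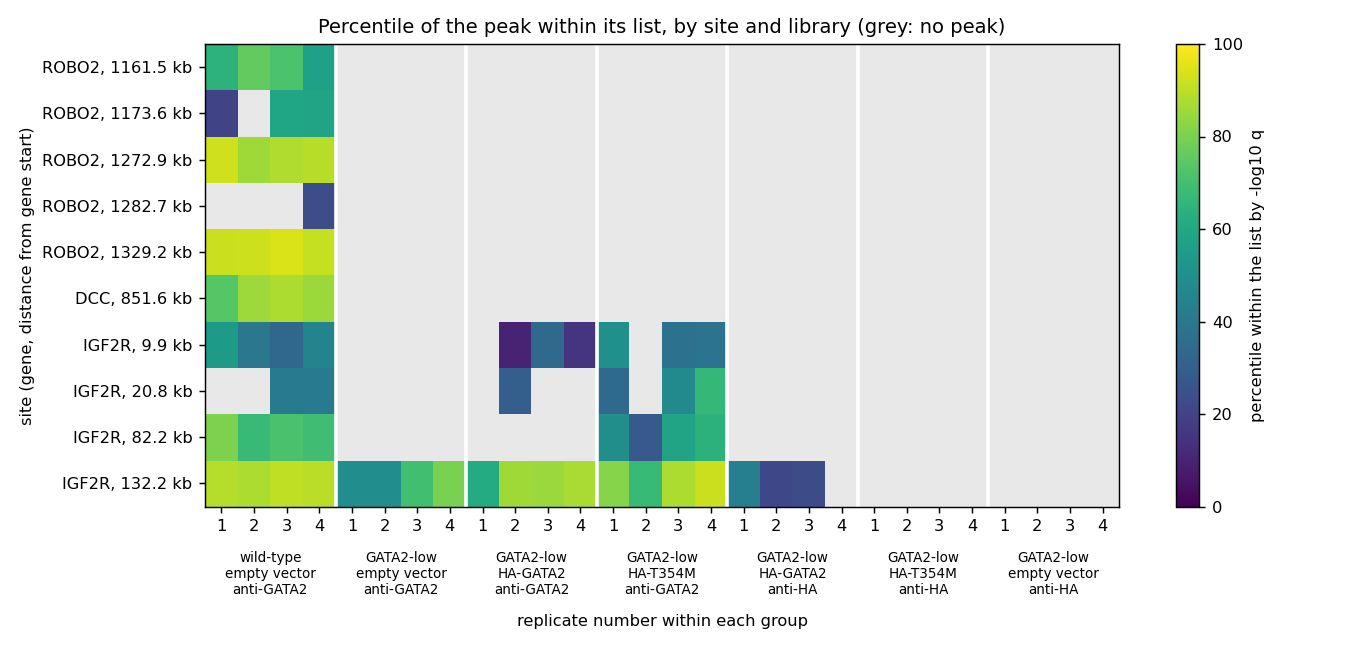
Each row is 1 of the 10 sites, named by gene and distance from the gene start in kb, and each column 1 of the 28 libraries, in groups of 4 replicates. Colour gives the percentile of the site's strongest peak by −log10 q within its list and grey means no peak. The ROBO2 and DCC rows are grey outside the wild-type columns, and the last IGF2R row is filled in 19 columns.

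Wild-type and GATA2-low empty-vector cells were set against each other to ask which sites go with the full level of GATA2. Of the 10 sites, 6 were called in 4 of 4 wild-type libraries and 0 of 4 GATA2-low empty-vector ones, 3 at ROBO2, 1 at DCC and 2 at IGF2R. Over the genome the same was true of 13.7% of the 11156 sites with a peak in either group. The members may have been chosen on this contrast, so nothing is read from their count. The count was 6 without the GATA2-low replicate whose genotype label disagrees, and 3 when every list was shortened to the length of the shortest, its strongest peaks kept.

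Across wild-type sites, absence from the empty-vector lists was less frequent the stronger the wild-type peaks were. Of 4806 sites with a peak in 4 of 4 wild-type libraries, 31.7% had none in the GATA2-low empty-vector anti-GATA2 libraries. This share was 80.8% of the sites with a mean wild-type percentile under 20, 20.6% of those from 60 to 80, 4.32% of those from 80 to 90 and 0.720% of those from 90 up. The IGF2R site 9.9 kb from the start, at a mean of 43.2 ± 8.79 (SD, n = 4), falls in the band from 40 to 60, where 48.8% lacked an empty-vector peak. The IGF2R site at 82.2 kb, at 72.1 ± 5.61, and the ROBO2 site at 1161.5 kb, at 67.4 ± 8.11, fall in the band from 60 to 80. The DCC site, at 82.9 ± 6.32, and the ROBO2 site at 1272.9 kb, at 88.9 ± 3.01, fall in the band from 80 to 90, where 31 of 718 sites lacked an empty-vector peak. The strongest ROBO2 site, at 92.5 ± 1.21, falls in the band from 90, where 5 of 694 did.

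No ROBO2 or DCC site had a peak in GATA2-low cells that carried HA-GATA2, although nearly all strong wild-type sites did. Of 1412 sites with a peak in 4 of 4 wild-type libraries and a mean percentile of at least 80, 1409 had a peak in at least 1 HA-GATA2 anti-GATA2 library. The 3 others were the ROBO2 sites at 1272.9 and 1329.2 kb and the DCC site. Over all sites with a peak in either group, 1.2% of 16782 were called in 4 of 4 wild-type libraries but 0 of 4 HA-GATA2 anti-GATA2 ones. These 202 sites include 5 of the members, which stand at the 1st, 2nd, 3rd, 6th and 10th place by mean wild-type percentile. Nothing is read from these counts as support, since the members may have been chosen for this. In the reverse direction, 37 of 1888 sites with 4 HA-GATA2 peaks and a mean percentile of at least 80 in those lists had no wild-type peak.

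**Figure D2:**
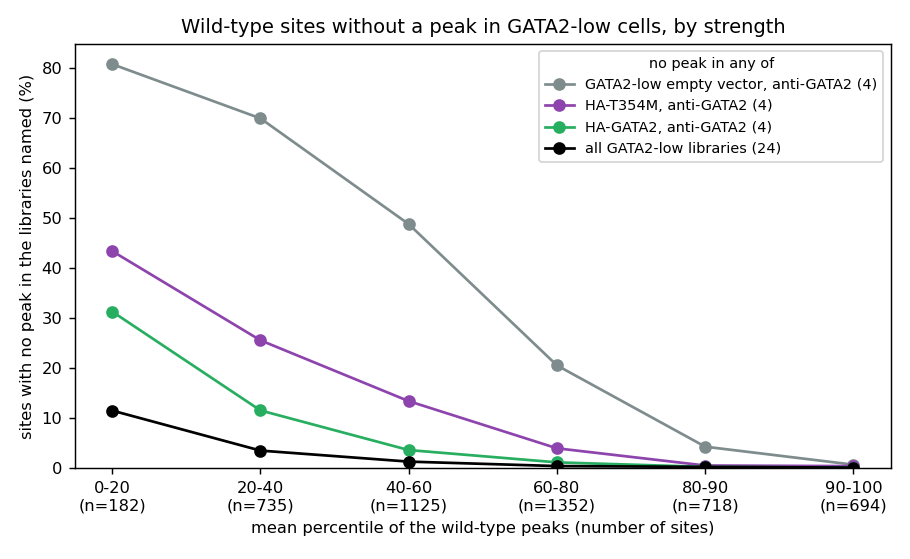
The vertical axis gives the percent of sites with a peak in 4 of 4 wild-type libraries that had no peak in the libraries of each line, and the horizontal axis bands of mean wild-type percentile with the number of sites. The empty-vector line falls from 80.8% to 0.720%, and the HA-GATA2 line from 31.3% to 0.144%, which is 1 site, the strongest of ROBO2.

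T354M libraries also had no peak at ROBO2 or DCC, and had peaks at all 4 IGF2R sites. Of the 10 sites, 4 were called in 4 of 4 wild-type libraries but 0 of 4 T354M anti-GATA2 ones, 3 at ROBO2 and the DCC site, against 4.03% of 11889 sites over the genome. Each of the 4 IGF2R sites had a peak in at least 3 T354M anti-GATA2 libraries. These comparisons share their wild-type libraries with the comparison against GATA2-low empty-vector cells.

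Absence from every GATA2-low library was rarer. Of the 4806 sites with 4 wild-type peaks, 71 (1.48%) had no peak in any of the 24 GATA2-low libraries, and their median wild-type percentile was 32.4, against 65.8 over all 4806. Members make up 4 of these 71. By mean percentile the strongest ROBO2 site was 1st, the ROBO2 site at 1272.9 kb 2nd, the DCC site 3rd and the ROBO2 site at 1161.5 kb, at 67.4 ± 8.11, 5th. The strongest of the 71 outside the 3 genes had a mean percentile of 68.5. Among the 1412 sites of at least 80, 0.212% lacked all GATA2-low peaks, and these are the same 3 sites as for HA-GATA2. The members may have been chosen for this, so nothing is read from these counts as support.

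**Figure D3:**
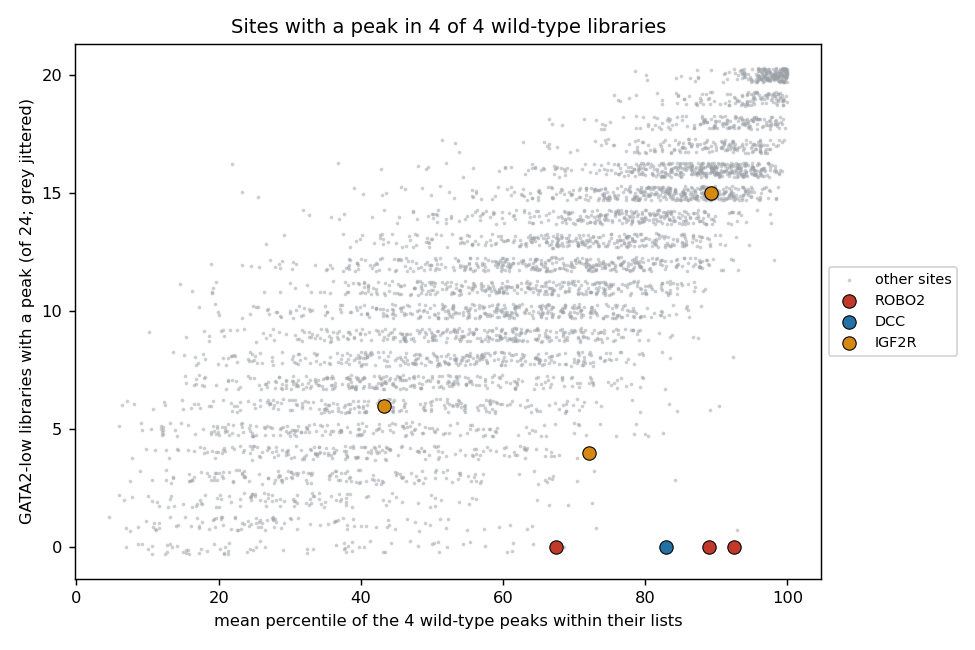
Each point is 1 of the 4806 sites with a peak in 4 of 4 wild-type libraries, with its mean wild-type percentile on the horizontal axis and the number of GATA2-low libraries with a peak, of 24, on the vertical axis. Coloured points are sites of ROBO2, DCC and IGF2R, and grey points all others, jittered vertically. At 0 libraries the ROBO2 and DCC sites lie at 67.4 to 92.5, and the IGF2R sites at 4, 6 and 15 libraries.

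Whether a whole stretch of the genome lacked peaks in GATA2-low cells was asked by following neighbouring sites along each chromosome. A run is an unbroken series of sites with a peak in at least 3 of 4 wild-type libraries and in none of the other libraries named. For the GATA2-low empty-vector anti-GATA2 libraries the run through ROBO2 held 5 sites, 4 of them in the gene, and those through DCC and IGF2R held 4 each. Such runs were not rare. Of 1522 runs over the genome, 51 had at least 5 sites and 126 at least 4, and the longest had 11.

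Over all 24 libraries of GATA2-low cells, runs were short everywhere but at ROBO2. There were 249 such runs, of which 234 held 1 site, 14 held 2 sites and 1 held 5. The run of 5 was that of ROBO2, made of its 4 sites with at least 3 wild-type peaks and of the next such site, which ends at 88059008 on chromosome 3. Sites with fewer wild-type peaks are passed over by a run. One of them, from 81549343 on, held peaks in 2 wild-type, 3 HA-GATA2 and 1 T354M anti-GATA2 libraries, so the stretch without peaks ended before the 5th site. With a run defined by 4 of 4 wild-type libraries, it held 3 sites, all in ROBO2, and likewise with peaks of −log10 q of at least 15 alone. ROBO2 was picked with earlier results of these libraries known, so its place among the runs, and among the intervals below, is a description.

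The peak-free interval around the ROBO2 sites measured 6113.6 kb in GATA2-low cells. It reached from 75435749 to 81549343, between a site with peaks in 4 wild-type, 1 empty-vector, 3 HA-GATA2 and 3 T354M anti-GATA2 libraries on the left and the site named above on the right. The left site lies 1632.4 kb before the first ROBO2 site and the right one 4312.4 kb after the last. Intervals of this length occurred elsewhere, since 16 of 15052, this one included, were at least as long. None of the others held 4 sites with at least 3 wild-type peaks. Wild-type cells had no peak in this interval outside the 168.7 kb of the ROBO2 sites. Beyond those 168.7 kb the peak lists therefore cannot show whether the interval differs between the cells.

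The 4 sites within 1 Mb of ROBO2 all lay before the gene, and GATA2-low cells kept peaks there. All 4 had a peak in every wild-type library. The HA-GATA2 anti-GATA2 libraries had 3 to 4 of them, the T354M libraries 2 to 3 and the empty-vector libraries 1 to 3. No site lay within 1 Mb after the gene. Within 5 Mb on either side, 28 other sites gave 12 to 15 per wild-type library and, by anti-GATA2, 13 to 20 per HA-GATA2, 5 to 13 per T354M and 3 to 9 per GATA2-low empty-vector library.

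At DCC the peak-free interval of the GATA2-low cells measured 2976.9 kb, from 51229656 to 54206572. At least as long were 84 of 15052 intervals. The DCC site was the only wild-type site in it, so the run had length 1 over all 24 libraries, as did 234 of 249. Its neighbours with GATA2-low peaks lay 1962.1 kb before and 1014.2 kb after it, and wild-type cells had no peak at either of these neighbours. A stretch cannot be told from a single missing site here.

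At IGF2R no stretch lacked peaks in all 24 libraries of GATA2-low cells together. In the 4 GATA2-low empty-vector anti-GATA2 libraries alone, an interval of 601.6 kb had none, from 159499657 to 160101256, with 3 of the IGF2R sites and 9 wild-type sites in all. At least as long were 1212 of the 3955 intervals of those libraries. The gap of the HA-GATA2 anti-GATA2 libraries around the IGF2R site at 82.2 kb measured 111 kb, with neighbouring IGF2R sites 61 kb before and 49.5 kb after. The site before had a peak in only 1 of these libraries and the site after in 4. Over all 24 libraries every IGF2R site had at least 4 with a peak. The lists show where peaks were called. The number of copies of these loci in the GATA2-low cells was not tested.

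**Figure D4:**
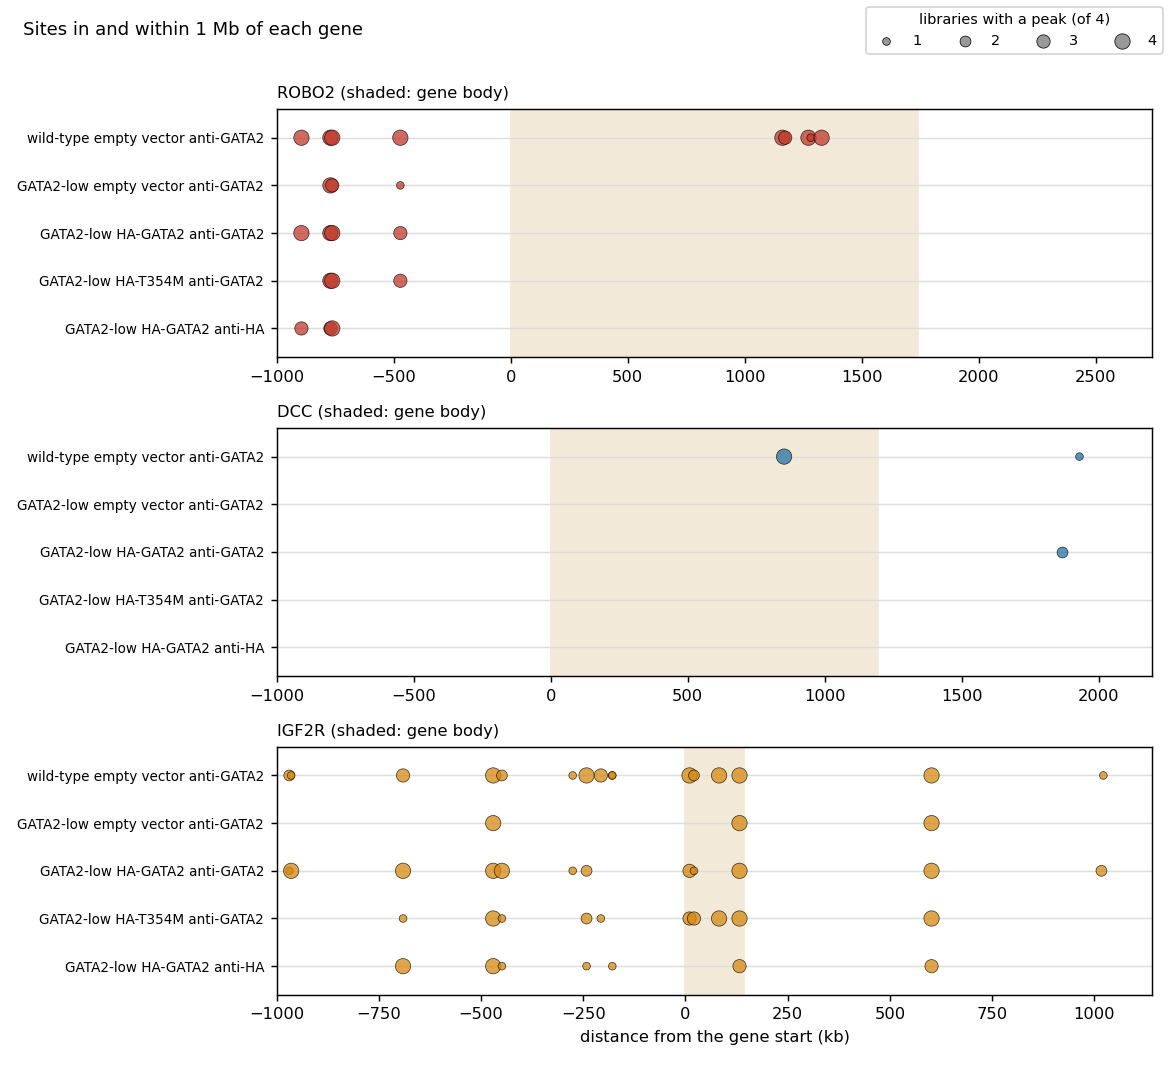
Each panel shows the sites in and within 1 Mb of a gene, by distance from the gene start in kb. There is 1 line for each anti-GATA2 group and for HA-GATA2 by anti-HA. T354M and empty vector by anti-HA are not drawn. Marker area is proportional to the number of libraries with a peak, of 4. The gene body is shaded. The ROBO2 and DCC bodies are empty below the wild-type line, while the 4 sites before ROBO2 and 4 sites in IGF2R hold peaks in GATA2-low cells.

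HA-GATA2 and T354M cells were compared directly at the same loci. Anti-GATA2 also sees the cells' own GATA2, so by that antibody the comparison does not isolate the zinc finger substitution. ROBO2 and DCC had no peak in either and could not be compared. By anti-GATA2, 10.2% of 14531 sites were called in 4 of 4 HA-GATA2 libraries but 0 of 4 T354M ones, and no member was among them. The reverse held for 5 sites, or 0.0344%, of which the IGF2R site at 82.2 kb is 1. Fisher's exact test (two-sided) gave p = 0.0286 there, the smallest that 4 against 4 can give, and an adjusted p of 0.279 over all sites (Benjamini-Hochberg), so it did not pass, and no site of the genome did. Adjusted only over the 2033 sites called in exactly 4 of these 8 libraries, p was 0.0390. Every site split 4 against 0 gets this same value there, and 1484 of them have the HA-GATA2 peaks. It therefore says nothing about this site in particular. With peaks of −log10 q of at least 15 alone the T354M count fell below 4 of 4 and no member remained. Whether the HA-GATA2 lists entered the choice of IGF2R is not given in the sources used here.

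The number of peaks per IGF2R window was 1, 3, 2 and 2 in the HA-GATA2 and 4, 2, 4 and 4 in the T354M anti-GATA2 libraries. The ranges overlapped. The means were 2 ± 0.816 and 3.5 ± 1 (SD, n = 4), a difference of -1.5 with p = 0.114 by the exact two-sided permutation test and 0.346 after adjustment over 24908 genes. No gene passed that adjustment. Without it, 4008 genes (16.1%) had more HA-GATA2 peaks and 11 (0.0442%) more T354M peaks at p of at most 0.05.

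By anti-HA, which sees only the introduced protein, the IGF2R site at 132.2 kb was the only member with a peak. HA-GATA2 replicates 1, 2 and 3 had it at percentiles of 43.3, 21.8 and 22.8, with 35, 31 and 36 fragments. Replicate 4, the shortest of these lists with 1912 peaks, did not, nor did any T354M or empty-vector library. For 3 of 4 against 0 of 4, Fisher's exact test gave p = 0.143, and 0.370 after adjustment against T354M and 0.291 against the empty vector. A split of 4 of 4 against 0 of 4 was found at 13.6% of 6944 sites against T354M and at 25.3% of 6916 against the empty vector, and without replicate 4 the site would split fully in both. By peaks per gene, IGF2R had 0.75 ± 0.5 with HA-GATA2 and 0 with T354M (exact permutation p = 0.143, adjusted p = 0.296 over 15890 genes). No gene passed this adjustment either, while 2683 (16.9%) had more HA-GATA2 peaks and 0 more T354M peaks at an unadjusted p of at most 0.05. The other 3 IGF2R sites had no anti-HA peak in any library.

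Genes that work with the 3 receptors were compared between wild-type and GATA2-low empty-vector cells by their number of anti-GATA2 peaks within 50 kb. Over all 22818 genes with a peak, none passed the adjusted permutation test (smallest adjusted p = 0.105), while 6227 (27.3%) had more wild-type peaks and 7 (0.0307%) fewer at an unadjusted p of at most 0.05. The wild-type means of the members were 4 ± 0.816 peaks at ROBO2, 1 at DCC and 3.5 ± 0.577 at IGF2R, against 0, 0 and 1 in GATA2-low cells, given without a test.

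Of 22 SLIT-ROBO genes other than ROBO2, 13 had a peak in these libraries. None passed the adjusted test and 3 had more wild-type peaks at an unadjusted p of at most 0.05. The median difference was 0.25 peaks over all 22, with genes without a peak counted as 0. The median of 0.75 over all genes tested leaves such genes out, so these medians cannot be compared. SRGAP3, a GTPase-activating protein that binds ROBO receptors, had peaks in 4 wild-type and 0 empty-vector libraries, but in 4 with HA-GATA2 and 3 with T354M. SDC4, a heparan sulfate proteoglycan, SLIT3, a ligand, and SRGAP2 each had peaks in 4 wild-type and 1 empty-vector library, and in 4 with HA-GATA2. ENAH, with the same difference in libraries but fewer wild-type peaks, had peaks in 3 wild-type, 0 empty-vector and 0 HA-GATA2 libraries; it falls outside the rule for named genes and was chosen after its values were seen.

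Of 23 netrin-DCC genes, 11 had a peak, none passed the adjusted test and 5 had more wild-type peaks without adjustment. The median difference was 0 over all 23, with genes without a peak counted as 0. It cannot be compared with the median over all genes tested. NTN3, a netrin, MAP1B, a microtubule-associated protein, and PITPNA, a phosphatidylinositol transfer protein, had peaks in 4 wild-type and 0 empty-vector libraries. HA-GATA2 libraries had them in 4, 3 and 3. Such a split was found for 3 of the 11 netrin-DCC genes with a peak, for 1 of 13 in each of the other lists and for 3602 of all 22818 genes with a peak (15.8%). DRAXIN, a secreted netrin antagonist, had peaks in 4 wild-type, 1 empty-vector and 4 HA-GATA2 libraries.

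Of 25 genes of IGF signalling and mannose 6-phosphate transport, 13 had a peak, none passed and 3 had more wild-type peaks without adjustment. The median difference was 0.25 over all 25, again with genes without a peak counted as 0. INSR, the insulin receptor, had peaks in 4 wild-type, 0 empty-vector, 4 HA-GATA2 and 0 T354M anti-GATA2 libraries. IRS1, an adaptor of the insulin and IGF1 receptors, had them in 4, 1, 4 and 1. IGF1R, which signals where IGF2R does not, had them in 4, 1, 2 and 0, and M6PR, the smaller mannose 6-phosphate receptor, in 4, 1, 4 and 2. No gene of the 3 lists had peaks in 4 wild-type and in none of the 24 GATA2-low libraries.

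Genes with the most similar counts over the 28 libraries were found by the sum of absolute differences. For ROBO2, with 16 wild-type peaks in all, FOSB came first at a distance of 6, with 10 wild-type peaks and none elsewhere, then KHSRP and CCDC106, which are 2 of 6 genes tied at 7. Their wild-type peaks were weak, with a mean percentile of 11.4 at FOSB, 25.2 at KHSRP and 23.1 at CCDC106, against 72.3 at ROBO2. For DCC, 22 genes had identical counts, among which BHLHE41, CGB1 and CGB2 are named by symbol order. The mean percentile was 37.7 at BHLHE41 and 19.4 at the neighbouring CGB1 and CGB2, against 82.9 at DCC. For IGF2R, CLDN7, ELP5 and RAB8A are named of 11 genes tied as nearest, at a distance of 10 over 43 peaks, with mean percentiles of 48.6, 48.6 and 50.5 against 64.3.

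ROBO2 and DCC are long genes and were set beside others of similar length. Of 314 protein-coding genes of at least 500 kb, 103 had a peak in every wild-type library. No peak in the GATA2-low empty-vector anti-GATA2 libraries was found for 22 of these 103, and none in any of the 24 GATA2-low libraries for 4, which are DCC, MALRD1, PCDH15 and ROBO2. Of the 18 that had at least as many wild-type peaks as ROBO2, ROBO2 was the only one among the 4. Over protein-coding genes of any length, 49 of 6462 with peaks in 4 wild-type libraries (0.758%) had none in the 24. With a mean of at least 2 wild-type peaks there were 3118 genes, and ROBO2 and FOSB were the 2 with none. The cut that left 18 long genes was set at the count of ROBO2 itself. ROBO2 and DCC were picked with earlier results of these libraries known, so nothing is read from these counts as support.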

How the data were processed

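CUT&Tag peak lists of 28 libraries were used, in 7 groups of 4 named by title and antibody; 8 IgG libraries were not used here. The submitters' processing notes list MACS2 2.2.7.1, Bowtie2 2.2.5, cutadapt 3.3, deepTools 3.5.3, FastQC and hg38, without settings. The authors deposited 1 list per library, with a fold enrichment (a linear ratio), −log10 p and −log10 q values and a score per peak. They served to order and select peaks inside each list and to recover whole fragments at summits by the Poisson model (matched within 0.03% for 41 of 41 member peaks of unscaled lists). HA-GATA2 and T354M anti-GATA2 lists were scaled by the caller, so no fragments are given there.

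Of 120964 peaks, 455 on chromosome Y, mitochondrial and unplaced sequences were left out. Peaks overlapping by at least 1 bp were merged. Coordinates are 1-based. Genes came from RefSeq GRCh38.p14.

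Sites were tested with Fisher's exact test, and peaks per gene window by exact permutation (70 splits), both two-sided with Benjamini-Hochberg adjustment over the whole table (python 3.11.15, scipy 1.17.1); both were checked on simulated data. The members, lists, tests and alternatives were chosen with earlier results of these data known. Named were all members and their sites, up to 4 genes per pathway list by the difference in libraries with a peak, and the 3 most similar protein-coding genes.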

Additional observations from a re-analysis of the deposited data

Results flagged for a closer look

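Of 32 sets of 4 member values examined, 3 had a library far from the other 3. Chance alone sets apart about 1 in 20 where values are continuous. Peak counts are whole numbers with ties, where any 1 differing library is set apart, so that rate does not hold for them. At the IGF2R site 132.2 kb from the gene start, HA-GATA2 anti-GATA2 replicate 1 stood at percentile 61.6 and the others at 85.1 to 87.2. Its list is the shortest of that group, with 7064 peaks. T354M anti-GATA2 replicate 2 had 2 peaks in the IGF2R window and the others 4 each, in the shortest list of its group (2779 peaks). HA-GATA2 anti-HA replicate 4 had 0 IGF2R peaks and the others 1 each, again in the shortest list of the group (1912 peaks). The part of list length in these values was not tested.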

How the results depend on the processing

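Counts of member sites with 4 of 4 against 0 of 4 libraries kept within 1.5 times under most settings. For wild-type against GATA2-low empty vector the 6 sites became 3 with lists of equal length. For HA-GATA2 against T354M by anti-GATA2 the 1 site became 0 at a −log10 q of at least 15. Member sites called after adjustment went from 0 to 1 (Fisher's exact test, adjusted p = 0.0390) when adjusted over sites with 4 of 8 libraries. That value is shared by every site split 4 against 0 and is not support for this member. The run through ROBO2 against the empty vector went from 5 sites to 2 with lists of equal length and to 3 with 4 of 4 wild-type libraries required. Over all GATA2-low libraries it went from 5 to 3 with 4 of 4 required and to 3 at a −log10 q of at least 15.

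Leaving out 1 library at a time gave 6 to 7 sites for wild-type against empty vector, 5 to 6 against HA-GATA2 and 1 throughout for HA-GATA2 against T354M. By anti-HA it gave 0 to 1 sites against T354M and 0 to 1 against the empty vector, the 1 without HA-GATA2 replicate 4. The IGF2R difference in peaks ranged from -2 to -1.17 by anti-GATA2 and from 0.667 to 1 by anti-HA, pathway genes called stayed at 0, and the run through ROBO2 held 5 to 6 sites against the empty vector and 4 to 5 over all libraries.

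Same-numbered libraries did not deviate together (correlations of -0.038 to -0.0048 between wild-type and empty vector, and of -0.046 to 0.014 between HA-GATA2 and T354M by anti-GATA2; by anti-HA 1 of 4 pairs was above 0.1). With a replicate block the IGF2R differences were -1.5 (p = 0.25) and 0.75 (p = 0.25) by exact sign-flip permutation, whose smallest p is 0.125, and 0 pathway genes were called. At a −log10 q of at least 15 the anti-HA difference for IGF2R fell to 0.25 peaks. As percent of the peaks of a library the anti-GATA2 difference was -0.0544, with an exact permutation p of 0.0286 and an adjusted p of 0.128. Lists of equal length gave no value for IGF2R peaks by anti-HA and were not run where the empty-vector anti-HA lists enter. The unknown depth limits every absence: a site without a peak may hold fragments below the calling limit.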
